A study of Mus musculus with 9 samples.

Results

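Interferon-stimulated genes are genes whose transcription rises when a cell receives an interferon signal. The 45 described here were matched by symbol to the array's non-control probes, out of 34733 gene names on the array, and 67 probes carried their names. They were measured in mouse brain tumours, in cells from such tumours and in normal brain cells, with 9 one-colour Agilent arrays of total RNA. MADM, mosaic analysis with double markers, is a mouse system in which rare cells lose a gene and are marked by colour at the same cell division. The 4 groups were EZH2-KO glioma tissue (3 arrays, brain tumour of a MADM mouse, labelled EZH2 knocked-out), MADM glioma cells (2 arrays, glioma cells from a brain tumour of a MADM mouse, with no Ezh2 genotype stated), astrocytes (2 arrays) and neural stem cells (2 arrays). Both normal cell types came from wild-type C57BL/6J brain, so the labelled strain also differs between the tumour groups and the normal groups. The labels used here name no driver, no initiating tumour mutations, no age, no culture time and no treatment, and they do not say whether arrays of a group came from separate animals or cultures. The p-values below then measure only the spread between these arrays, which may be technical. Their small number limits the precision.

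A cell that senses foreign RNA or DNA secretes type I interferon, which binds the receptor made of Ifnar1 and Ifnar2 on the same and neighbouring cells. The kinases Jak1 and Tyk2 then activate Stat2, which acts with Irf9 in a complex that binds the interferon-stimulated response element (ISRE). Interferon gamma acts through Ifngr1 and Ifngr2, on another element, the gamma-activated site (GAS). In brain, microglia and astrocytes are both known to respond to interferon.

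In the text below, a level is the log2 probe signal minus that array's 75th percentile, so a level of 0 is that percentile and a difference of 1 is 2-fold. A gene is read from its brightest tested probe. The test took in probes that passed the scanner's background flag throughout 1 or more of the groups, and a gene was called where limma's adjusted p was under 0.05 and the change at least 2-fold. Of the 45 genes, 44 were tested in every comparison. Oas1g was well above background on 1 glioma cell array only, at -3.59, and was not tested. All 44 tested members were well above background on every tissue and every astrocyte array. In glioma cells 34 of 45 members were above background on both arrays, 6 on 1 array and 5 on none, and in neural stem cells these numbers were 33, 6 and 6. A set of 30 members was well above background on all 9 arrays. The others passed the filter only through groups in which they were brighter.

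Interferon-stimulated genes were high in the tumour tissue and in the astrocytes, and low in the glioma cells and the neural stem cells. Each of the 5 tissue and astrocyte arrays was above each of the 4 glioma cell and neural stem cell arrays in 33 of the 44 tested members, against 5.99% of all 25397 genes tested. The opposite order was shown by 0 members and by 11.6% of all genes. The division into high and low groups follows the members' own levels, so these counts describe the pattern and do not test it. Members outside the 30 above background on all arrays were tested only through groups in which they were brighter. The 11 members outside this pattern were Sp100, Oas1b, Herc6, Mx2, Rsad2, Samhd1, Isg20, Cmpk2, Iigp1, Tgtp1 and Ifi35. Averaged over all 45 genes, the level was 1.53, 2.72 and 1.46 on the tissue arrays and 2.11 and 1.05 on the astrocyte arrays. It was -1.77 and -2.33 on the glioma cell arrays and -2.72 and -2.94 on the neural stem cell arrays. The members' own levels on each array show the same split by group.

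**Figure D1:**
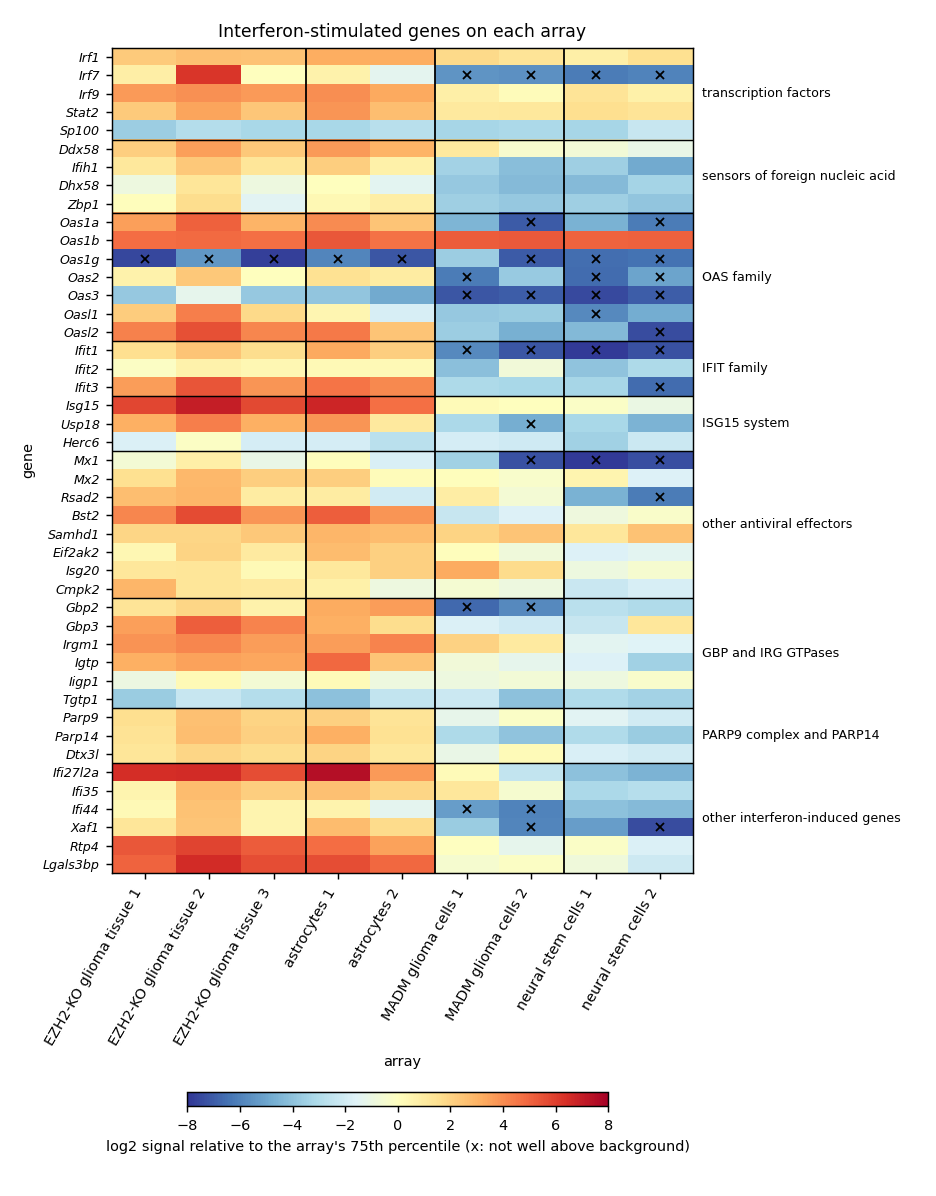
Level of each of the 45 genes (rows, by role) on each of the 9 arrays (columns), as log2 signal relative to the array's 75th percentile, with a cross where the probe was not well above background. Red fills the tissue and astrocyte columns for most genes and blue the glioma cell and neural stem cell columns, while Oas1b is red and Sp100 and Tgtp1 are blue in all 4 groups.

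Against astrocytes, 28 of the 44 tested members were called lower in glioma cells and 0 higher, where the shares of all genes called were 9.91% lower and 9.09% higher. The median log2 change was -3.27 over the members and 0.15 over all genes tested. Of the 16 members not called, 5 had a log2 change above 0. The count rested on few arrays: it was 12 without astrocyte array 1, 17 without glioma cell array 2 and 22 without astrocyte array 2. The 12 members called in all 6 fits that each left out 1 cell array were Irf7, Irf9, Ifih1, Zbp1, Oas1a, Ifit1, Isg15, Bst2, Gbp2, Parp14, Ifi44 and Lgals3bp.

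Neural stem cells differed from astrocytes in the same direction, and the astrocyte arrays are shared by both comparisons. Of the 44 members, 31 were called lower and 0 higher (7.89% and 6.8% of all genes). The median log2 change was -4.46 over the members and 0.21 over all genes. The count was 11 without neural stem cell array 2, 18 without astrocyte array 1 and 22 without neural stem cell array 1. Zbp1, Oasl2, Ifit1, Ifit3, Bst2, Eif2ak2, Gbp2, Irgm1 and Lgals3bp were called in every fit that left out an array.

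In the tumour tissue, 30 members were called higher than in glioma cells and 0 lower (7.82% and 9.11% of all genes), with a median log2 change of 3.97 over the members and -0.16 over all genes. Against neural stem cells, 35 were called higher and 0 lower (8.08% and 9.89% of all genes), with medians of 4.84 and -0.22. Leaving out 1 array at a time gave 23 to 31 and 28 to 36 members called, with 20 and 27 members called in every such fit. The tissue arrays were on another slide, scanned at another time and read with another version of the scanner software than the cell arrays, so slide and sample type cannot be told apart in comparisons with the tissue. Tissue also holds many cell types, and in bulk RNA fewer cells of a type and less RNA per cell cannot be told apart.

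Between tissue and astrocytes, 2 of the 44 members were called. Oasl1 was higher and Gbp2 lower in tissue (10.6% and 12.4% of all genes were called), and the median log2 change was 0.08 over the members and -0.06 over all genes. The members' log2 changes ran from -2.11 to 3.48. An adjusted p above the threshold does not show that the remaining 42 were at equal levels.

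**Figure D2:**
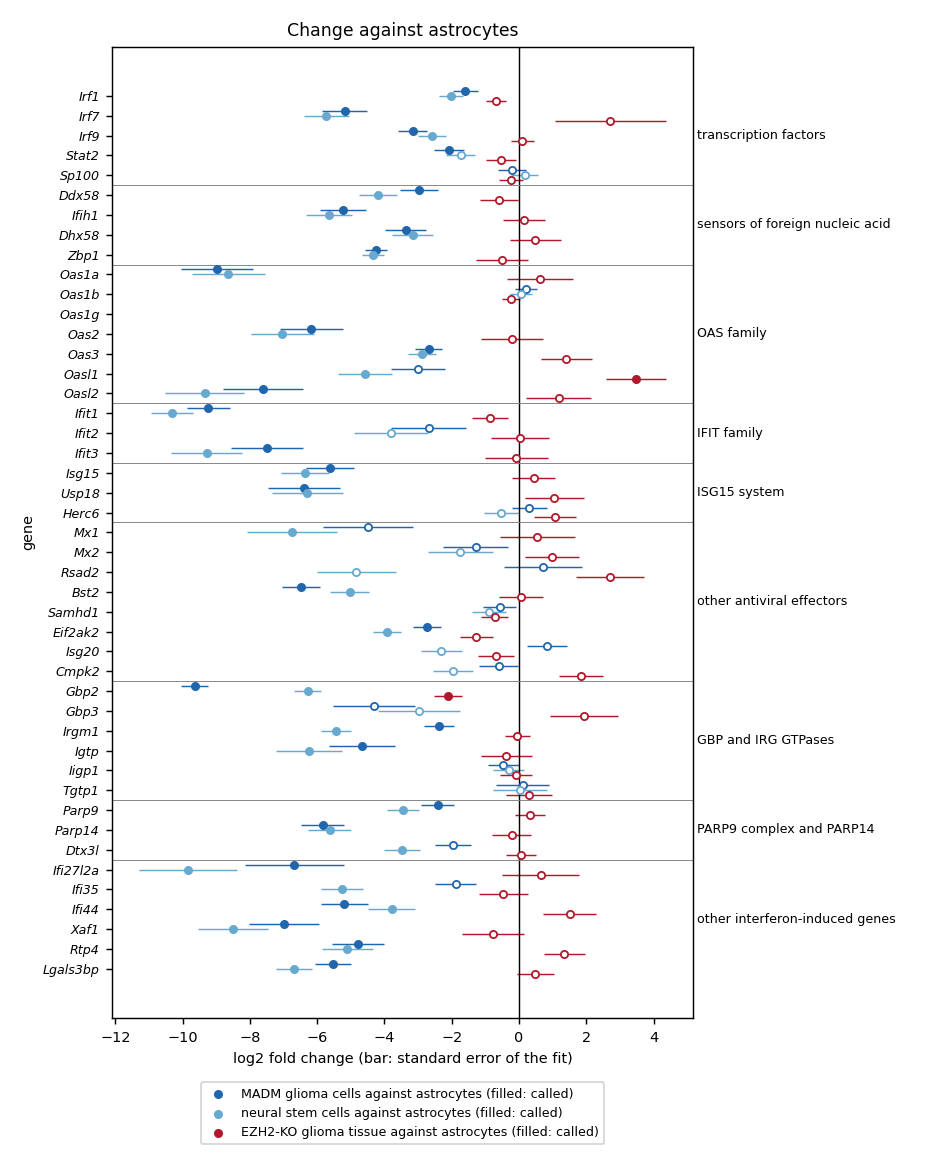
Log2 fold change of each gene (rows, by role) against astrocytes in glioma cells, neural stem cells and tissue, with the standard error of the limma fit as a bar, filled where called; points of genes below background in a group are fitted values, not bounds. The points of glioma cells and neural stem cells lie mostly between -2 and -10, those of the tissue around 0, and the filled tissue points are Oasl1 at 3.48 and Gbp2 at -2.11.

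Markers of microglia and macrophages were high and low in the same groups as these genes. The list of 16 microglia and macrophage markers had a mean level of 2.89 to 4.06 on the tissue arrays and 3.02 and 3.46 on the astrocyte arrays, with all 16 above background on each. It was -3.72 and -3.40 on the glioma cell arrays, with 9 and 10 of 16 above background, and -0.56 and -2.20 on the neural stem cell arrays, with 15 and 14 of 16. The log2 of the summed signal ran from 7.68 to 8.85 in tissue, 7.99 to 8.27 in astrocytes, 4.78 to 5.29 in glioma cells and 4.98 to 5.70 in neural stem cells. Aif1, Cx3cr1, C1qa, Ctss, Laptm5 and Trem2 were not well above background on either glioma cell array. Against astrocytes, 15 of the 16 markers were called lower in glioma cells and 14 of 16 in neural stem cells (9.91% and 7.89% of all genes). By mean level the microglia list was higher on both neural stem cell arrays than on both glioma cell arrays, while the mean over the interferon-stimulated genes was lower. By summed signal the low groups overlapped in the microglia list, since glioma cell array 1 (5.29) was above neural stem cell array 2 (4.98). The part of microglia in the results was not tested.

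Other lists checked the labels. All 12 astrocyte markers were above background on both astrocyte arrays, at a mean of 4.35 and 3.25. They were also at 2.37 to 3.53 in tissue and at 3.31 and 0.56 in neural stem cells, with 12 and 11 of 12 above background, and at 0.07 and -0.38 in glioma cells, with 10 of 12. All 8 oligodendrocyte precursor markers were above background on the tissue and glioma cell arrays, at means of 4.23 to 5.07. They averaged 3.72 and 2.39 in neural stem cells as well, with 8 and 7 of 8 above background, and -1.72 and -2.26 in astrocytes, with 6 of 8. Neural stem cell markers averaged 3.82 and 3.67 in neural stem cells, but 1.71 to 2.79 in astrocytes and 2.20 to 2.60 in tissue as well. The glioma cell arrays differed in this list, at 0.28 and 2.46, with 7 and 10 of 10 markers above background. Fibroblast and meninges markers averaged 6.05 on astrocyte array 2 against 1.29 on astrocyte array 1. The fibroblast list was -2.23 to 0.08 in tissue, -2.39 and -4.28 in glioma cells and -0.86 and -1.68 in neural stem cells. Of its 8 genes, 4 were called lower in glioma cells than in astrocytes (9.91% of all genes). Neuron markers averaged 2.40 to 3.87 in tissue, -0.96 and 0.12 in glioma cells, 0.42 and -0.46 in astrocytes and 1.00 and 0.26 in neural stem cells. Lymphocyte markers averaged -3.51 to -4.29 on all 9 arrays, with 4 to 6 of 10 above background. Endothelium and pericyte markers averaged -0.58 to 0.09 in tissue, -3.29 and -1.21 in astrocytes, and -4.05 to -4.49 in the other groups. Ezh2, the gene named in the tissue label, was read by 1 probe at 1.91, 1.62 and 1.48 on the tissue arrays and above background on all 9 arrays. The glioma cells stood at 3.03 and 3.24, the neural stem cells at 2.14 and 3.38, and the astrocytes at 0.19 and -0.58. The labels do not say which part of Ezh2 was removed, and tissue holds cells without the deletion, so this probe does not settle the knockout.

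**Figure D3:**
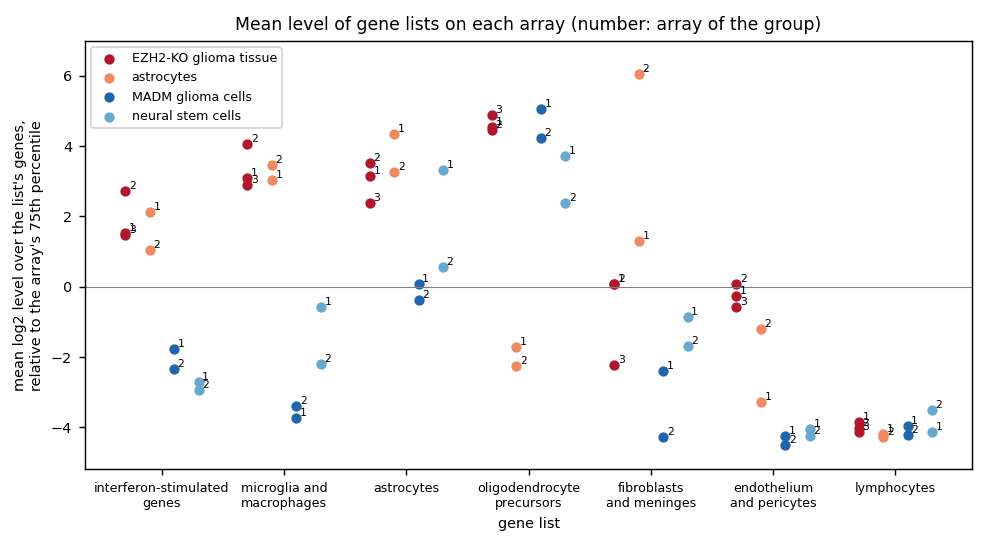
Mean level over each gene list (columns) on each array (points, coloured by group, numbered by array), on the log2 scale relative to the array's 75th percentile. The interferon-stimulated genes and the microglia list are both high in tissue and astrocytes, but the neural stem cell points lie above the glioma cell points for microglia and below them for the interferon-stimulated genes.

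The members' promoters were searched for the ISRE and GAS cores. RefSeq windows of 300 bases (GRCm38.p6, 250 before and 50 after the start) were at hand for 33 of the 45 members. The ISRE core GAAANNGAA, on either strand, was in the window of 18 of these 33 genes, and in 45% of the members' 40 windows against 8.56% of all 32851 windows. The GAS core TTCNNNGAA, which reads the same on both strands, was in 10 of the 33 and in 25% of the windows against 8.3% of all. Repeats of the ISRE core can overlap by their last and first 3 bases. Stretches are shown for 5 genes called lower in glioma cells than in astrocytes, picked by the size of that change. Each is the gene of its role group with the largest fitted change among those with a core upstream of the start. The 5 such genes with the largest changes are given. They run 5′ to 3′ on the gene's strand, and capitals mark the ISRE cores.
Gbp2 (chr3:142620575-142620643, plus strand): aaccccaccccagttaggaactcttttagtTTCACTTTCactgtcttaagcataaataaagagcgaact
Ifit1 (chr19:34640750-34640843, plus strand): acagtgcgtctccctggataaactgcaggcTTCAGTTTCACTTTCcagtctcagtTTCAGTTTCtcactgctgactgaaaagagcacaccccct
Oas1a (chr5:120907526-120907575, minus strand): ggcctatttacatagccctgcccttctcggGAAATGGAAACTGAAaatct
Bst2 (chr8:71537558-71537632, minus strand): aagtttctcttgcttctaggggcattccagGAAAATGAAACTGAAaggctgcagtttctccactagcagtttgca
Isg15 (chr4:156200846-156200926, minus strand): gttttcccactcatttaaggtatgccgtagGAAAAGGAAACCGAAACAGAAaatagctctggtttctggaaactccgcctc
Isg15 holds 3 cores in a row, Ifit1 3 cores of which a pair overlaps, Oas1a and Bst2 an overlapping pair each, and Gbp2 a lone core. In Gbp2 and Ifit1 the capitals show the core's complement, since it lies on the other strand. A match of letters is a description of the window and not a measured binding site.

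**Figure D4:**
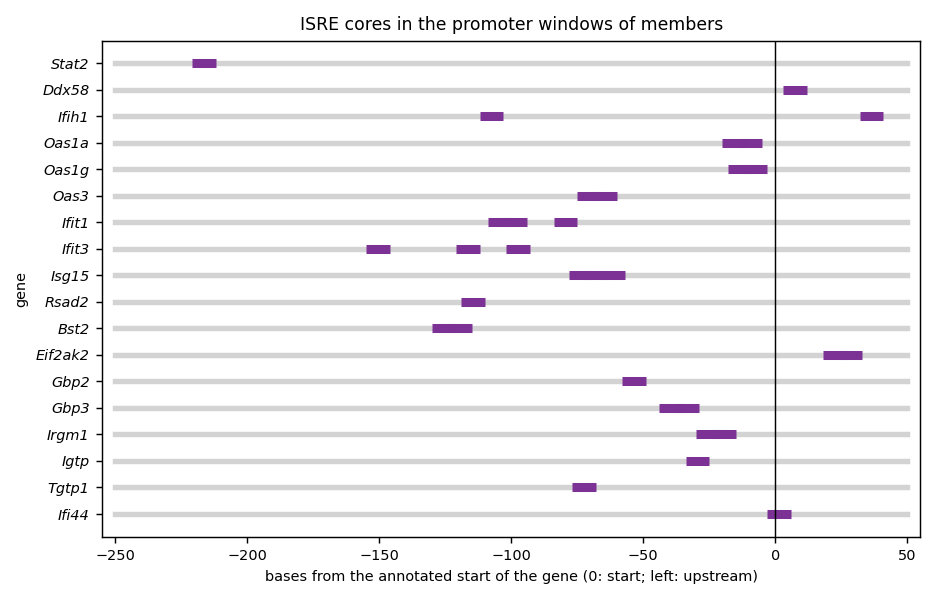
Positions of ISRE cores (purple) in the promoter windows of the 18 members that hold 1 or more, in bases from the annotated start of the gene. The core of Stat2, at -221, lies farthest upstream. The cores of Ddx58 and Eif2ak2 and 1 of the 2 in Ifih1 lie downstream of the start.

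Among the transcription factors, Irf7, which drives the later wave of interferon production, read 0.85, 6.20 and 0.04 on the tissue arrays and 0.66 and -1.37 on the astrocyte arrays. It was not well above background on any glioma cell or neural stem cell array, where its probe (chr7:148450664-148451014, mm9) read -5.48 and -5.59, and -6.18 and -5.98. Tissue array 2 thus stood far above the other tissue arrays in this gene. A probe below background gives only a bound. It was computed against the higher of the probe's own signal and the dimmest signal that passed the background flag on each array. The call and the adjusted p printed with a bound belong to the fitted change and do not test the bound. By that bound Irf7 was at least 27.3-fold lower in glioma cells than in astrocytes (adjusted p = 0.0095) and at least 31.1-fold lower in neural stem cells (adjusted p = 0.0097). Leaving out 1 array moved the first bound to between 13.5-fold and 55.2-fold. In tissue it was at least 180-fold higher than in glioma cells (adjusted p = 0.0186), and leaving out 1 array moved this bound to between 47.6-fold and 402-fold. Its log2 difference between tissue and astrocytes was 2.72 ± 1.66 (SE, adjusted p = 0.263), and 0.80 without tissue array 2.

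Irf9, the DNA-binding subunit of the complex that reads the ISRE, moved with little spread. Its levels were 3.64, 3.89 and 3.66 in tissue, 3.98 and 3.28 in astrocytes, 0.76 and 0.18 in glioma cells, and 1.35 and 0.74 in neural stem cells. The high and low groups did not overlap. The log2 change was -3.16 ± 0.42 in glioma cells against astrocytes (adjusted p = 0.0099), -2.59 ± 0.42 in neural stem cells against astrocytes (adjusted p = 0.0201), and 3.26 ± 0.34 in tissue against glioma cells (adjusted p = 0.0013). Stat2, its partner, stood at 2.26, 3.40 and 2.40 in tissue, 3.79 and 2.64 in astrocytes, 1.12 and 1.14 in glioma cells and 1.61 and 1.36 in neural stem cells. It was called only in glioma cells against astrocytes, at -2.09 ± 0.44 (adjusted p = 0.0321), and lost that call in 5 of the 6 fits that left out an array. Against neural stem cells and glioma cells, the tissue differed in Stat2 by 1.20 ± 0.45 and 1.56 ± 0.45 (adjusted p = 0.105 and 0.0527).

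Irf1, a factor induced chiefly by interferon gamma, was present in every group, at 3.17 and 3.15 in astrocytes, 2.31 to 2.61 in tissue, 1.79 and 1.36 in glioma cells and 0.78 and 1.51 in neural stem cells. Both high groups were above both low groups here too. It was lower in glioma cells than in astrocytes by a log2 change of -1.59 ± 0.36 (adjusted p = 0.0394) and in neural stem cells by -2.02 ± 0.36 (adjusted p = 0.026). Sp100, a nuclear body protein, was near -3 in all groups (-3.62 to -2.37) and was called in no comparison.

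All 4 sensors of foreign nucleic acid were lower in glioma cells and in neural stem cells than in astrocytes (9.91% and 7.89% of all genes). They were also higher in tissue than in either (7.82% and 8.08% of all genes). Ifih1, which encodes the long double-stranded RNA sensor MDA5, read 1.16, 2.37 and 1.29 in tissue and 2.17 and 0.74 in astrocytes. In glioma cells it read -3.38 and -4.18, and in neural stem cells -3.53 and -4.85. No array of the low groups reached the high groups, and the log2 change was -5.23 ± 0.69 in glioma cells against astrocytes (adjusted p = 0.0098) and 5.39 ± 0.62 in tissue against glioma cells (adjusted p = 0.002). Zbp1, a sensor of Z-form nucleic acid, had the smallest standard error of the 4 sensors in cells, at -4.24 ± 0.33 and -4.34 ± 0.33 in glioma cells and neural stem cells against astrocytes (adjusted p = 0.0031 and 0.0052). Ddx58, which encodes the RNA sensor RIG-I, read 1.07 and -0.41 in glioma cells against 3.63 and 2.98 in astrocytes, a log2 change of -2.97 ± 0.57 (adjusted p = 0.0258). Dhx58, which encodes LGP2, changed by -3.37 ± 0.61 in glioma cells and -3.15 ± 0.61 in neural stem cells.

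The OAS family makes the signal that switches on RNase L, which degrades RNA in infected cells. Of its 6 tested members, 4 were lower in glioma cells than in astrocytes, 5 lower in neural stem cells, and 5 higher in tissue than in either. The shares of all genes were 9.91% and 7.89% lower and 7.82% and 8.08% higher. Oas1a read 3.55, 5.07 and 2.99 in tissue, 4.05 and 2.45 in astrocytes, -4.46 and -7.01 in glioma cells and -4.59 and -6.18 in neural stem cells. The second array of each low group was not well above background, so each of these groups was measured on 1 of its 2 arrays. The log2 change was -8.99 ± 1.08 in glioma cells against astrocytes (adjusted p = 0.0077) and 9.61 ± 0.97 in tissue against glioma cells (adjusted p = 0.0012). With every array's level raised to at least the dimmest signal that passed the background flag there, its floor, these differences were -7.96 and 8.58.

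Oasl2, an OAS-like protein, read 4.31, 5.51 and 4.16 in tissue and 4.47 and 2.49 in astrocytes, against -3.61 and -4.64 in glioma cells and -4.34 and -7.39 in neural stem cells. Its log2 change was -9.35 ± 1.19 in neural stem cells against astrocytes (adjusted p = 0.0113) and 10.52 ± 0.98 in tissue against neural stem cells (adjusted p = 0.0011). Neural stem cells were above background on 1 of 2 arrays, and with levels raised to the floor the differences were -8.18 and 9.36. Oas2 was not well above background in neural stem cells, which gave bounds of at least 91.3-fold lower than astrocytes (adjusted p = 0.0129) and at least 79.2-fold lower than tissue (adjusted p = 0.0036). Oas3 was dim everywhere, at -3.81, -1.26 and -3.79 in tissue and -3.91 and -4.81 in astrocytes. It was below background in both other groups, so its bounds were small. They were at least 1.7-fold lower in glioma cells than in astrocytes (adjusted p = 0.0142) and at least 4.51-fold higher in tissue than in glioma cells (adjusted p = 0.0121). The first bound is under the 2-fold threshold, so that call rests on signals below background.

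Oasl1, which dampens translation of Irf7 mRNA, was the only member called higher in tissue than in astrocytes. It read 2.19, 4.35 and 1.77 in tissue, 0.44 and -1.85 in astrocytes, -3.80 and -3.63 in glioma cells and -5.78 and -4.79 in neural stem cells, where array 1 was not well above background. All 3 tissue arrays were above both astrocyte arrays, and the log2 change was 3.48 ± 0.90 (adjusted p = 0.0295). The call was lost without astrocyte array 2 (2.33, adjusted p = 0.168) and without tissue array 1 (3.77, adjusted p = 0.0535). It was also lost with the replicate number as a block (3.98, adjusted p = 0.0608) and with only the tissue and astrocyte arrays in the fit (adjusted p = 0.0544). Oas1b stood at 4.68 to 5.37 on all 9 arrays and was called in no comparison, with log2 changes of -0.46 to 0.22. A second probe of Oas1b gave changes of -0.47 to 0.38, and another gave 1.63 in tissue against both glioma cells and neural stem cells. The OAS genes are close copies of each other, and the array's probes may not separate them fully.

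In the IFIT family, whose proteins bind foreign RNA ends, Ifit1 was called in 4 comparisons. It read 1.59, 2.44 and 1.64 in tissue and 3.31 and 2.19 in astrocytes, and was not well above background on any glioma cell or neural stem cell array. It was at least 234-fold lower in glioma cells than in astrocytes (adjusted p = 0.0028) and at least 267-fold lower in neural stem cells (adjusted p = 0.0044). Against the tissue the bounds were at least 129-fold (glioma cells, adjusted p = 0.000314) and at least 147-fold (neural stem cells, adjusted p = 0.000329). Ifit3 read 3.59, 5.39 and 3.80 in tissue, 4.61 and 4.07 in astrocytes, -3.10 and -3.21 in glioma cells and -3.29 and -6.61 in neural stem cells, the last not well above background. Its log2 change was -7.50 ± 1.06 in glioma cells against astrocytes (adjusted p = 0.0117). Ifit2 differed between the glioma cell arrays, at -4.12 and -0.72, and was called only in tissue against neural stem cells, at 3.84 ± 0.88 (adjusted p = 0.0234).

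Isg15, a ubiquitin-like protein that is joined to other proteins during an interferon response, was called in the same 4 comparisons. Its probe (chr4:155573649-155573708, mm9) read 5.81, 6.99 and 5.75 in tissue, 6.73 and 4.74 in astrocytes, 0.20 and 0.04 in glioma cells and -0.21 and -1.04 in neural stem cells. It remained well above background in the low groups. The log2 change was -5.61 ± 0.71 in glioma cells against astrocytes (adjusted p = 0.0088), -6.36 ± 0.71 in neural stem cells against astrocytes (adjusted p = 0.0087) and 6.06 ± 0.64 in tissue against glioma cells (adjusted p = 0.0014). Usp18, which removes Isg15 from proteins and blocks the interferon receptor, read 3.06, 4.33 and 3.07 in tissue, 3.76 and 1.12 in astrocytes, -3.16 and -4.74 in glioma cells and -3.20 and -4.50 in neural stem cells. Its changes had the same directions: -6.39 ± 1.06 in glioma cells against astrocytes (adjusted p = 0.0175), -6.29 ± 1.06 in neural stem cells (adjusted p = 0.022) and 7.44 ± 0.88 in tissue against glioma cells (adjusted p = 0.0023). Glioma cell array 2 was not well above background for Usp18 but lay above the floor, so raising levels to it left -6.39 and 7.44 as they were. Herc6, the main enzyme that attaches Isg15 in mouse, was called nowhere by its brightest probe, with log2 changes of -0.52 to 1.59. Its other probe gave -1.49 in glioma cells and -2.94 in neural stem cells against astrocytes, so its probes disagree.

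The other antiviral effectors were the most mixed group: 2 of 8 were lower in glioma cells than in astrocytes, 3 of 8 lower in neural stem cells, and 3 and 5 of 8 higher in tissue than in these. The shares of all genes were 9.91% and 7.89% lower and 7.82% and 8.08% higher, and with 8 genes such counts are small. Bst2, the protein tetherin that holds budding virus at the cell surface, read 4.13, 5.68 and 3.75 in tissue, 5.17 and 3.77 in astrocytes, -2.33 and -1.67 in glioma cells and -0.87 and -0.27 in neural stem cells. Its log2 change was -6.47 ± 0.57 in glioma cells against astrocytes (adjusted p = 0.0038), -5.04 ± 0.57 in neural stem cells (adjusted p = 0.0089) and 6.52 ± 0.65 in tissue against glioma cells (adjusted p = 0.0012). Eif2ak2, the RNA-activated kinase PKR, was lower by -2.74 ± 0.41 in glioma cells and -3.93 ± 0.41 in neural stem cells (adjusted p = 0.0136 and 0.0078). Mx1, an interferon-induced GTPase, was below background in neural stem cells, at least 22-fold under astrocytes (adjusted p = 0.0328) and at least 32.2-fold under tissue (adjusted p = 0.0061). Its glioma cell arrays stood apart, at -3.45 and, not well above background, -7.26, and it was not called there against astrocytes (adjusted p = 0.0718).

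Several effectors were not lower in glioma cells by test. Rsad2, the antiviral enzyme viperin, read 0.92 and -0.57 there, against the 0.97 and -2.04 of astrocytes, and -4.58 and -6.14 in neural stem cells, the last not well above background. In tissue it read 2.64, 2.89 and 0.98. It was called only in tissue against neural stem cells, at 7.53 ± 1.02 (adjusted p = 0.0038), while glioma cells against neural stem cells gave 5.54 ± 1.16 (adjusted p = 0.119). With levels raised to the floor, the difference between tissue and neural stem cells was 6.99. Isg20, an RNA exonuclease, read 3.19 and 1.73 in glioma cells, against -0.91 and -0.45 in neural stem cells, a log2 difference of 3.14 ± 0.61 (adjusted p = 0.104). That difference rests on the probe used: Isg20's other probe gave -0.90 for it, and -3.26 where the probe used gave 0.84 for glioma cells against astrocytes. Cmpk2, the neighbour of Rsad2 in the genome and a nucleotide kinase, was higher in tissue than in glioma cells by 2.46 ± 0.65 (adjusted p = 0.04) and than in neural stem cells by 3.81 ± 0.65 (adjusted p = 0.0085). Samhd1, which depletes nucleotides, was called in no comparison, at 1.25 to 2.88 over all 9 arrays, and neither was Mx2.

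The GBP and IRG GTPases attack the vacuoles of intracellular pathogens and respond strongly to interferon gamma. Gbp2, probed at chr3:142300719-142300778 (mm9), was the only gene of the 45 called in all 6 comparisons. It read 3.20 and 3.62 in astrocytes, 1.35, 1.89 and 0.67 in tissue and -2.71 and -3.03 in neural stem cells, and it was not well above background in glioma cells, at -6.66 and -5.80. No pair of groups overlapped. Gbp2 was at least 371-fold lower in glioma cells than in astrocytes (adjusted p = 0.0023) and at least 4.78-fold lower than in neural stem cells (adjusted p = 0.0409). Neural stem cells were below astrocytes by a log2 change of -6.28 ± 0.40 (adjusted p = 0.0044), and tissue was below astrocytes by -2.11 ± 0.43 (adjusted p = 0.013). The call between glioma cells and neural stem cells was lost in 5 of 6 fits that left out an array, with adjusted p up to 0.146, and with the replicate number as a block (adjusted p = 0.0717). The call between tissue and astrocytes was lost without astrocyte array 2 (adjusted p = 0.0766).

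Igtp and Irgm1, GTPases of the IRG family, were both lower in glioma cells and neural stem cells than in astrocytes. Igtp read 3.07, 3.45 and 3.36 in tissue, 4.89 and 2.46 in astrocytes, -0.71 and -1.26 in glioma cells and -1.65 and -3.49 in neural stem cells. It changed by -4.66 ± 0.98 in glioma cells against astrocytes (adjusted p = 0.0326) and was 5.87 ± 0.76 higher in tissue than in neural stem cells (adjusted p = 0.0032). Irgm1 stood at 2.02 and 1.06 in glioma cells, between 3.62 and 4.22 in astrocytes and -1.42 and -1.62 in neural stem cells. Its difference of 3.06 ± 0.43 between glioma cells and neural stem cells missed the threshold (adjusted p = 0.0555), and both of its probes gave it. Gbp3 differed between the neural stem cell arrays, at -2.37 and 1.22, and was called only in tissue, at 6.23 ± 1.01 above glioma cells (adjusted p = 0.0073) and 4.88 ± 1.01 above neural stem cells (adjusted p = 0.0167). Iigp1 and Tgtp1 were called in no comparison. Iigp1 stood at -0.94 to 0.28 on all arrays by its brightest probe, while its other probe was well above background on both astrocyte arrays and on neither glioma cell array.

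Parp9 and Dtx3l encode partners in a complex that modifies histones, and Parp14 a related enzyme. All 3 were higher in tissue than in glioma cells and neural stem cells (7.82% and 8.08% of all genes). All 3 were also lower in neural stem cells than in astrocytes (7.89% of all genes). Parp14 read 1.43, 2.67 and 2.10 in tissue, 3.10 and 1.47 in astrocytes, -3.11 and -3.99 in glioma cells and -3.05 and -3.64 in neural stem cells. Its log2 change was -5.83 ± 0.65 in glioma cells against astrocytes (adjusted p = 0.0066), -5.63 ± 0.65 in neural stem cells (adjusted p = 0.0092) and 5.62 ± 0.58 in tissue against glioma cells (adjusted p = 0.0013). Parp9 changed by -2.42 ± 0.49 in glioma cells against astrocytes (adjusted p = 0.0291). Another Parp9 probe gave log2 changes of only -0.21 to 0.30 over all 6 comparisons, so its probes disagree. Dtx3l differed there by -1.97 ± 0.54 and was not called (adjusted p = 0.0606). Parp9 and Dtx3l lie beside each other in the genome.

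Of the remaining interferon-induced genes, Ifi27l2a, a small membrane protein, differed most between the astrocyte arrays, at 7.44 and 3.67. Its other values were 6.50, 6.52 and 5.57 in tissue, 0.25 and -2.49 in glioma cells and -4.02 and -4.55 in neural stem cells. The astrocyte arrays differed by 3.77 and the groups by more, with a log2 change of -9.84 ± 1.46 in neural stem cells against astrocytes (adjusted p = 0.0164) and 10.48 ± 1.15 in tissue against neural stem cells (adjusted p = 0.0018). In glioma cells against astrocytes it was -6.68 ± 1.46 (adjusted p = 0.0358), a call lost in 4 of the 6 fits that left out an array. Lgals3bp, a secreted galectin-binding glycoprotein, read 5.05, 6.54 and 5.57 in tissue, 5.57 and 4.90 in astrocytes, -0.45 and -0.17 in glioma cells and -0.77 and -2.14 in neural stem cells. It changed by -5.54 ± 0.54 in glioma cells against astrocytes (adjusted p = 0.0047) and was called in each of the 4 comparisons between a high and a low group without any 1 array.

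Ifi44 was not well above background in glioma cells, at least 26-fold lower than in astrocytes (adjusted p = 0.0101) and at least 73.6-fold lower than in tissue (adjusted p = 0.0023). In neural stem cells it was measured, at -4.05 and -4.28. Rtp4, a chaperone for cell surface receptors, read 5.36, 5.84 and 5.24 in tissue, 4.80 and 3.47 in astrocytes and -1.72 to -0.04 in the low groups. Xaf1, a pro-apoptotic protein, changed by -6.97 ± 1.04 in glioma cells against astrocytes by its brightest probe (adjusted p = 0.0134). Glioma cells were above background there on 1 of 2 arrays, and the difference was -6.51 with levels raised to the floor. Its other probe gave 2.23 for that comparison and 7.05 for tissue against astrocytes, so the direction in glioma cells depends on the probe. Ifi35 resembled Irgm1: 1.20 and -0.47 in glioma cells, 2.62 and 1.88 in astrocytes, and -3.17 and -2.87 in neural stem cells. It was not called in glioma cells against neural stem cells (3.38 ± 0.62, adjusted p = 0.0931), and was called at 4.22 (adjusted p = 0.0482) without glioma cell array 2.

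Glioma cells and neural stem cells, the low groups, differed in few members by test. Of the 44 members, 0 were called higher in glioma cells and 1 lower, Gbp2, where 0.676% and 0.322% of all genes were called. At an unadjusted p under 0.05 the number was 7, or 15.9% of the members, against 14.6% of all genes. The median log2 difference was 0.65 over the members and -0.05 over all genes, and 32 of 44 members had a difference above 0, against 11600 of 24866 genes. In 20 of the 44 members both glioma cell arrays were above both neural stem cell arrays, against 20.2% of all genes. The opposite order was shown by 4 members and by 25.9% of all genes. With members below background raised to the floor of each array, the median was 0.44.

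The arrays within a group were not alike in these genes. Tissue array 2 was at least 2-fold above tissue array 1 in 27 of 44 members and below it in 1, Cmpk2, where 10.2% and 9.44% of all genes were that far apart. It was at least 2-fold above tissue array 3 in 20 members and below it in 0 (10.2% and 6.84% of all genes). Array 2 was the higher in 43 of 44 members against array 1 and in 43 of 44 against array 3. Tissue arrays 1 and 3 were at least 2-fold apart in 3 members one way and 1 the other (9.34% and 6.96% of all genes). The largest gaps were in Irf7, by 5.35 over array 1 and 6.16 over array 3. The microglia list was also highest on tissue array 2, at 4.06 against 3.10 and 2.89. So were the astrocyte list (3.53 against 3.14 and 2.37), the endothelium and pericyte list (0.09 against -0.27 and -0.58) and the neural stem cell list. The neuron, fibroblast, lymphocyte and oligodendrocyte precursor lists were not. The part of any list in this difference was not tested. Without tissue array 2, 26 members were called above glioma cells and 33 above neural stem cells.

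Astrocyte array 1 was at least 2-fold above astrocyte array 2 in 23 of 44 members and below it in 1, Tgtp1 (9.67% and 8.39% of all genes), with a median difference of 1.06. Ifi27l2a showed the widest gap, 3.77. Here the microglia list went the other way, at 3.02 on array 1 and 3.46 on array 2. The fibroblast list and the endothelium and pericyte list were also higher on array 2. The astrocyte list went with the members, at 4.35 on array 1 and 3.25 on array 2. So did the neural stem cell, neuron, oligodendrocyte precursor and lymphocyte lists. The part of any list in this difference was not tested. The glioma cell arrays were at least 2-fold apart in 13 members with array 1 higher and in 3 with array 2 higher (8.67% and 8.27% of all genes), the latter Oas2, Ifit2 and Dtx3l. In neural stem cells these numbers were 11 and 4 (10.5% and 10.7% of all genes).

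**Figure D5:**
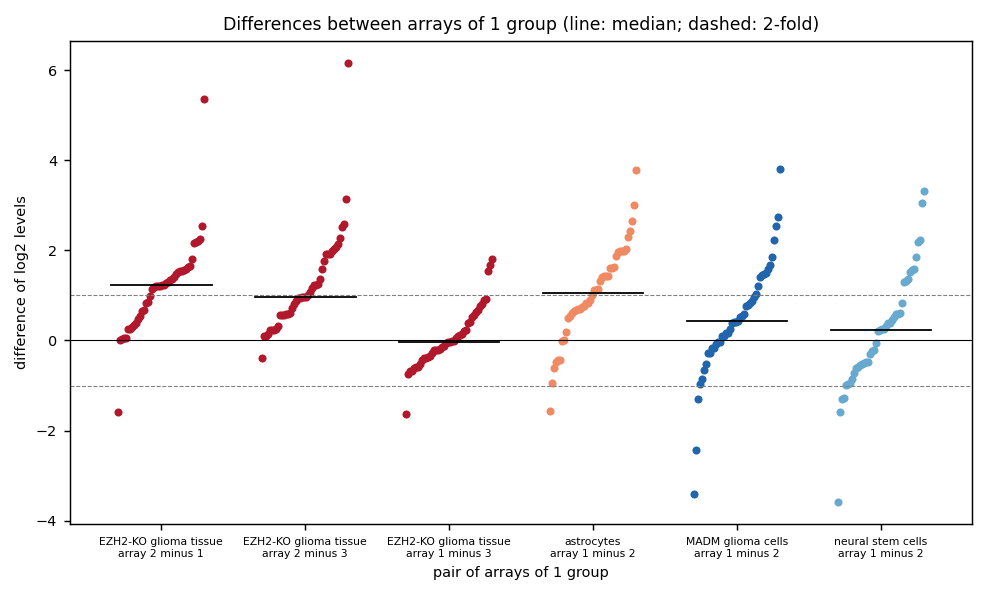
Difference of log2 level between arrays of 1 group for the 44 tested members (points, sorted), with the median as a black line and dashed lines at 2-fold. Tissue array 2 lies above both other tissue arrays, and astrocyte array 1 above array 2, for most members, while tissue arrays 1 and 3 are centred near 0; the top points in the tissue pairs with array 2 are Irf7.

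The other genes of the pathway were read from a list of 56 genes in 6 classes, of which 52 were tested. In glioma cells against astrocytes 0 were called higher and 20 lower (9.09% and 9.91% of all genes), and in neural stem cells against astrocytes 0 and 21 (6.8% and 7.89%). In glioma cells against neural stem cells 1 was higher and 0 lower (0.676% and 0.322% of all genes). In tissue 12 were higher and 1 lower than in glioma cells (7.82% and 9.11% of all genes), 16 and 2 than in neural stem cells (8.08% and 9.89%), and 0 and 10 than in astrocytes (10.6% and 12.4%). Leaving out 1 array at a time, 7 of the 20 calls in glioma cells and 5 of the 21 in neural stem cells against astrocytes held in every such fit. The 15 further interferon-induced genes held 41 of the 83 calls over the 6 comparisons, the ligands 4 and the receptors 5. Of 9 interferon ligands, 5 were tested and all were dim. Ifnb1, interferon beta, was above background on tissue arrays 1 and 2 only, at -4.17 and -4.13, and Ifng, interferon gamma, on astrocyte array 1 only, at -4.77. Neither was tested. Ifnk, interferon kappa, was the only ligand called, at -1.49 and -1.75 in astrocytes and at least 10.3-fold lower in glioma cells (adjusted p = 0.0156) and at least 12.3-fold lower in tissue (adjusted p = 0.0015).

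The subunits of the receptors for type I interferon and interferon gamma were present throughout. Ifnar1 stood at 1.55 to 2.69 and Ifnar2 at 1.40 to 2.67 over the 9 arrays, and Ifngr1 at 1.06 to 3.02 and Ifngr2 at 1.69 to 2.91. Ifnlr1, of the interferon lambda receptor, was the only receptor gene called. It was at least 12.9-fold lower in glioma cells than in astrocytes (adjusted p = 0.0097) and at least 14.7-fold lower in neural stem cells (adjusted p = 0.0102). Among the 8 signal transducers, Jak1 was called in tissue against astrocytes only, at -1.09 ± 0.24 (adjusted p = 0.018).

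Irf8 and Irf5 are factors prominent in microglia and macrophages. Irf5 was lower in glioma cells than in astrocytes by a log2 change of -4.30 ± 0.37 (adjusted p = 0.0037) and in neural stem cells by -4.23 ± 0.37 (adjusted p = 0.0057). Irf8 was the only pathway gene called in glioma cells against neural stem cells, 2.34 ± 0.30 higher (adjusted p = 0.0493), and it lost that call in all 6 fits that left out an array, with adjusted p up to 0.124. Of the 12 upstream sensors and adaptors, 2 were lower in glioma cells than in astrocytes (Unc93b1 and Ikbke). In neural stem cells 5 were lower (Tlr3, Tlr4, Unc93b1, Ikbke and Ticam1). The shares of all genes called lower were 9.91% and 7.89%. Only the Ikbke call in glioma cells held in every fit that left out an array. Of 6 negative regulators, Socs1 and Socs3 were lower in both, Socs3 by -3.27 ± 0.47 in glioma cells (adjusted p = 0.0118) and also in tissue against astrocytes by -3.02 ± 0.44 (adjusted p = 0.004). In both cell groups the calls of Socs1 and Socs3 were lost in some fits that left out an array. The Socs3 call in tissue held in all such fits.

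The 15 further interferon-induced genes followed the members against astrocytes: 10 were lower in glioma cells and 10 in neural stem cells, and 0 higher in either. The shares of all genes called lower were 9.91% and 7.89%. In tissue 7 were higher than in glioma cells and 9 higher than in neural stem cells (7.82% and 8.08% of all genes). They departed from the members in Ifitm2 and Ifitm3, membrane proteins that block viral entry, which were lower in tissue than in astrocytes. The Ifitm3 call was lost in 6 of the 9 fits that left out an array, and the Ifitm2 call in 0. Ifitm3 read 6.31 and 5.96 in astrocytes and 3.66, 5.13 and 2.97 in tissue. Trim25, a ubiquitin ligase that activates RIG-I, ran against the rest. It stood at 3.68, 3.94 and 3.73 in tissue and 4.72 to 5.57 on the 6 cell arrays, and was lower in tissue in all 3 comparisons. Of the 9 fits that left out an array, the call was lost in 4 against glioma cells, 1 against neural stem cells and 5 against astrocytes. The chemokine gene Cxcl10 was 4.39 and 1.82 in astrocytes, 3.45, 3.17 and 1.51 in tissue and -4.91 to -3.02 in the low groups, the same order as most members.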

How the data were processed

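RNA of 9 samples was measured on one-colour Agilent arrays. Per the file headers, Feature Extraction (10.7.3.1 for the tissue and 10.7.1.1 for the cells, while the submitters' processing notes name 10.7.3.1) gave background-subtracted signal intensities, with no scaling between arrays. The authors' deposited log2 table was within 0.01 of log2 of these signals for at least 99.0% of probes and served as an alternative. Of 55681 probes, 55666 were kept. Levels were log2 signals minus each array's 75th percentile. Probe positions are those of the files (mm9). limma 3.58.1 (R 4.3.3; lmFit, eBayes, Benjamini-Hochberg) was fitted over all genes tested, on the 6 cell arrays (24866 genes, 3 residual degrees of freedom) or, with tissue, on all 9 arrays (25397 genes, 5). Every adjusted p in the text is from these fits or, where the text says so, from limma with an array left out, a replicate block or fewer groups. The script was tested on simulated data. Members and lists were chosen with earlier results of these data known. Named with full values were the main signalling genes, the called members with the largest change or bound in each role group, and others by count; genes added after their values were seen include those whose probes disagree. Results on 1 pathway gene are not reported here. Alternatives were background correction, normalization, filters, probes per gene, samples in the fit, the prior, the replicate number and each array left out. The share of spots above background was 60.1% to 65.7% per array.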

Additional observations from a re-analysis of the deposited data

How the results depend on the processing

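With probes limited to those above background throughout a fit, 30 members were tested, and 17 were called lower in glioma cells and 18 in neural stem cells than in astrocytes. The numbers higher in tissue were then 18 against glioma cells and 22 against neural stem cells, with 0 higher and 0 lower against astrocytes and 0 lower in glioma cells than in neural stem cells. Higher in glioma cells than in neural stem cells were 1 member with quantile normalization and 2 with all 9 arrays in the fit, and Gbp2's call (1 lower) became 0 with normexp, with no filter and with the replicate block. In tissue against astrocytes, 2 members were higher with quantile normalization, 3 with the mean of probes and 0 with only those groups' arrays. Leaving out 1 array gave 12 to 27 members lower in glioma cells and 11 to 31 in neural stem cells than in astrocytes, 0 to 1 higher and 0 to 1 lower in glioma cells than in neural stem cells, and 0 to 2 higher and 0 to 2 lower in tissue than in astrocytes. Among single genes, 1485 of 1607 values kept direction and side of the threshold. Xaf1 in glioma cells against astrocytes turned to 2.19 with quantile normalization, which took its other probe. Usp18 in glioma cells against neural stem cells turned to 0.016 with normexp, and ran from -0.89 to 0.69 leaving out 1 array. In tissue against astrocytes, Ddx58 turned to 0.14 (mean of probes) and Herc6 to -0.24 (normexp). Leaving out 1 array there gave -0.25 to 0.45 for Irf9, -1.10 to 0.039 for Stat2, -0.55 to 1.44 for Isg15, -0.27 to 2.37 for Usp18 and -0.051 to 0.72 for Parp9. The cause of these changes was not tested. Same-numbered arrays had correlations of -0.16 to 0.12 of their deviations, which shows no clear pairing by number but cannot exclude it. With 2 arrays per cell group, the deviations of arrays 1 and 2 mirror each other. The replicate block gave 27, 31, 27 and 32 members in the 4 comparisons of a high with a low group. Slide as a block could not be fitted, since tissue and cells lie on different slides. Normexp used the median spot signal in place of the planned mean, which the tissue files lack. Probes below background give bounds only.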
